A study of Mus musculus with 6 samples.

Results

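The genes described here are 10 imprinted growth genes: H19, Igf2, Plagl1, Cdkn1c, Dlk1, Meg3, Peg3, Grb10, Mest and Ndn. They were taken by symbol from the 31053 genes counted in every library, and each symbol matched 1 gene. An imprinted gene is transcribed mainly from the copy inherited from the mother or mainly from the copy inherited from the father. Many imprinted genes act on fetal and juvenile growth, and in many organs of the mouse their transcripts are high before birth and decline in the weeks after it. Igf2, Plagl1, Dlk1, Peg3, Mest and Ndn are known as paternally expressed genes, and H19, Cdkn1c, Meg3 and Grb10 are known as maternally expressed in most tissues. The counts do not tell the parental copies apart, so only total levels are given.

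The cells came from mitral valves of 2 mouse genotypes. K/B.g7 mice carry the KRN T cell receptor transgene together with the major histocompatibility molecule I-Ag7, and they develop autoimmune arthritis and inflammation of the mitral valve. Their samples are labelled inflamed. B.g7 mice share I-Ag7, lack the receptor transgene and served as controls. Each genotype was sampled at 3, 8 and 25 weeks, with 1 library of sorted live cells per genotype and age. The number of mice behind a library is not given in the sources used here, so every p-value below measures the spread between these libraries only.

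The 6 libraries held between 15196750 and 69152541 UMIs, each UMI being 1 counted RNA molecule, and 47871 of 58351 barcodes were used as cells. At most 66 barcodes were shared by any pair of libraries, 0.708% of the smaller library. Clusters were named from marker genes: 37435 cells were fibroblast-like, 3015 endothelial-like, 2015 mural-like (pericytes and smooth muscle), 655 lymphatic endothelial-like and 537 glial-like. All 9 fibroblast markers were detected in the fibroblast-like cells of every library, and all 10 endothelial markers in the endothelial-like cells. Sex-linked transcripts showed that most libraries mixed cells of males and females in different proportions. Among fibroblast-like cells, those with an Xist UMI and no Y-linked UMI numbered 3102 against 89 of the opposite kind in B.g7 at 8 weeks, and 2626 against 4991 in K/B.g7 at 25 weeks.

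Levels are CPM: the UMIs of a gene summed over the cells of 1 class in 1 library, scaled to a fixed total of UMIs. Bounds given with a CPM are exact Poisson 95% intervals and cover counting error only. Age was tested with edgeR's quasi-likelihood test on the summed counts with genotype as a term, so that the 2 genotypes were the replicates of an age. A gene passed at an adjusted p (Benjamini-Hochberg over all genes tested) below 0.05.

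Positions are on GRCm38. H19 is a long noncoding RNA gene at chr7:142575529-142578143 on the minus strand. Igf2 is 72.6 kb away at chr7:142650766-142666816 on the same strand, and Cdkn1c follows at chr7:143458339-143461050, also on the minus strand. Dlk1 at chr12:109452823-109463336 and the long noncoding RNA gene Meg3 at chr12:109541001-109571726 are neighbours on the plus strand, 77.7 kb apart. The others are Plagl1 at chr10:13060504-13131694, Peg3 at chr7:6703892-6730431, Grb10 at chr11:11930508-12038683, Mest at chr6:30723547-30748465 and Ndn at chr7:62346569-62350262. Mest overlaps Copg2 on the opposite strand and Igf2 overlaps Gm49394 on its own strand, so reads that such partners could share are uncertain.

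The cell classes differed in which of the genes they held. H19 had a mean of 554 ± 167 CPM (SD, n = 6 libraries) in endothelial-like cells, against 44.5 ± 47.5 in lymphatic endothelial-like cells and 3.39 in fibroblast-like cells. The lowest endothelial-like library held 398 CPM and the highest lymphatic endothelial-like library held 138, so these groups did not overlap. Plagl1, a zinc finger transcription factor, had a mean of 306 ± 199 CPM in endothelial-like cells, and the highest lymphatic endothelial-like library held 21.9. Igf2, the fetal growth factor, had a mean of 12.9 ± 8.57 CPM in endothelial-like cells and 0.185 in fibroblast-like cells.

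Of the 10 genes, 3 were higher in fibroblast-like than in endothelial-like cells by the mean over libraries: Meg3, Ndn and Dlk1. The orders given here are over the classes summed in all 6 libraries. Meg3 had a mean of 445 ± 93.5 CPM in fibroblast-like cells and 341 ± 32.4 in glial-like cells, and these 2 ranges overlapped (321 to 547 and 307 to 395). Mural-like cells followed with 147 ± 35.0 CPM, then endothelial-like cells with 95.9 ± 67.9, whose range of 18.3 to 200 took in that of the mural-like cells. In mesothelial-like cells, summed in 5 libraries, Meg3 ranged from 67.3 to 682 CPM with a mean of 236. Ndn, a member of the MAGE protein family, had a mean of 144 ± 29.6 CPM in fibroblast-like cells, where the lowest library held 105, above the highest mural-like library at 99.1. That lowest value lay below the highest glial-like library (112) and the highest mesothelial-like one (146), so these ranges overlapped. The lowest mural-like value, 54.3, lay below the highest endothelial-like value, 60.3.

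For the other genes the leading classes overlapped. Cdkn1c, which encodes the cyclin-dependent kinase inhibitor p57, had means of 88.7 ± 45.7 CPM in endothelial-like, 79.4 ± 17.8 in fibroblast-like and 47.0 ± 23.1 in mural-like cells, with overlapping ranges, and 95.6 ± 63.3 in mesothelial-like cells of 5 libraries. Peg3, a zinc finger protein gene, had means of 164 ± 69.7 CPM in endothelial-like and 77.8 ± 16.9 in fibroblast-like cells, also overlapping. Grb10, an adaptor that restrains insulin and IGF receptor signalling, was led by lymphatic endothelial-like cells with 109 ± 25.1 CPM, and endothelial-like, glial-like and fibroblast-like means lay between 66.4 and 76.4. Mest, which encodes a membrane protein of the hydrolase fold, had means of 36.0 ± 22.6 CPM in lymphatic endothelial-like, 35.8 ± 15.3 in glial-like and 27.6 ± 13.9 in endothelial-like cells. These orders are descriptions, since the clusters were made from the same cells.

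**Figure D1:**
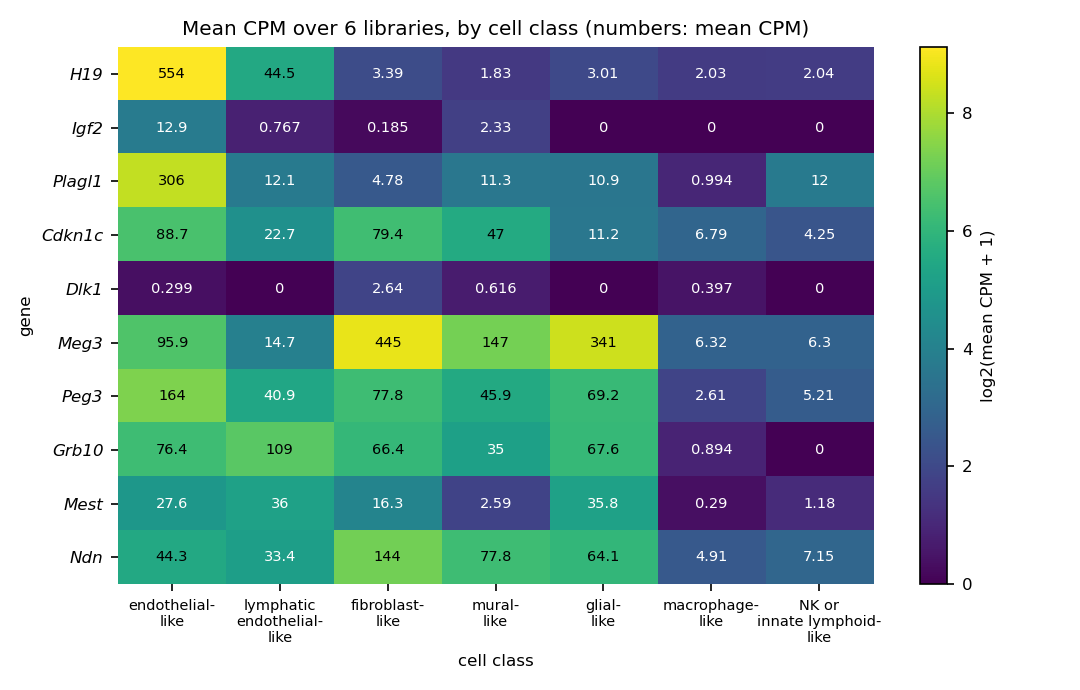
Mean CPM of each gene (rows) in 7 cell classes (columns), over the 6 libraries. Colour is log2(mean CPM + 1) and the printed number is the mean CPM. H19 and Plagl1 stand out in endothelial-like cells at 554 and 306 CPM, and Meg3 in fibroblast-like and glial-like cells at 445 and 341.

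The age question was asked first in fibroblast-like cells, the largest class. At 8 weeks 4 of the 9 genes that could be tested were lower than at 3 weeks: Mest, Dlk1, Plagl1 and Grb10. None was called higher, and the fitted change was below 0 for all 9. Of all 14381 genes tested, 2.35% were called lower, 3.18% higher and 5.54% in either direction. The median log2 change was -0.59 over the 9 genes and 0.01 over all genes. Igf2 did not pass the filter on low counts, with 1 to 14 UMIs per library.

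A window of 300 bases at a start site is printed for each of the 4 genes called lower at 8 weeks. Whether these genes moved together was not tested. RefSeq gave 3 windows for Mest and 2 for Grb10, and the one shown of each was chosen after the motif counts were seen. They are RefSeq sequences on GRCm38.p6, 5′ to 3′ on the gene's strand, with matches to GGGGCCCC, TATAAA or the core of the CTCF consensus on either strand in capitals. Mest is shown at chr6:30737800-30738099 on the plus strand, Dlk1 at chr12:109452573-109452872 on the plus strand, Plagl1 at chr10:13090582-13090881 on the plus strand and Grb10 at chr11:12037371-12037670 on the minus strand.
Mest: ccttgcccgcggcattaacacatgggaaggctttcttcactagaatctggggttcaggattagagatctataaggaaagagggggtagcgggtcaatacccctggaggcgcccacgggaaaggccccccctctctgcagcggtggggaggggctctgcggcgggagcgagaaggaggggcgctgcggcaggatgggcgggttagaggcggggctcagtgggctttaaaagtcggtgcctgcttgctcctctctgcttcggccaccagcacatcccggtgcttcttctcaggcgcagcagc
Dlk1: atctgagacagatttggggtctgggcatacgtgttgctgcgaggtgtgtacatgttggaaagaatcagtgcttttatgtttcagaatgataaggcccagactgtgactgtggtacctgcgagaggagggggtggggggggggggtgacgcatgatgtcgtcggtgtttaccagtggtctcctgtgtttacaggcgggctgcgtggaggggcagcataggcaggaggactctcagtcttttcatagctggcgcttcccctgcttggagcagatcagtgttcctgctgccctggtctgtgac
Plagl1: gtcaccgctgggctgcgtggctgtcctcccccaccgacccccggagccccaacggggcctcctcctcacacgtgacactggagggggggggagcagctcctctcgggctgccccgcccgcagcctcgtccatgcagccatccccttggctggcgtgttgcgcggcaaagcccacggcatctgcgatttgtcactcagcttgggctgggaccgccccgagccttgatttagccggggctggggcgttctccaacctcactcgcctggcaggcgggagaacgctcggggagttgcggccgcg
Grb10: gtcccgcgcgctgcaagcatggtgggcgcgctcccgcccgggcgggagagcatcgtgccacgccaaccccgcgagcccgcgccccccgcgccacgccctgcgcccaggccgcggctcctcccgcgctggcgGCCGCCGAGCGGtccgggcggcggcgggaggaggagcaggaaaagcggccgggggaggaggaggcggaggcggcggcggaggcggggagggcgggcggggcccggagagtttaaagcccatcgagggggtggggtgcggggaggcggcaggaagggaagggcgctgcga
The 4 windows shared none of the longer motifs searched, and all 4 held CG pairs. The Grb10 window held 1 match to the CTCF core, found in 1.32% of 32544 RefSeq promoter windows of that length, and 45 CG pairs, against a median of 7, while the other Grb10 window held no such match and 9 CG pairs. The Plagl1 window held 26 CG pairs, the Mest window 17 (8 in the window upstream of it) and the Dlk1 window 9, and these 3 held no match to the longer motifs. A match describes letters only.

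Mest held 25.5 and 29.5 CPM at 3 weeks in K/B.g7 and B.g7, 8.81 and 7.87 at 8 weeks, and 10.9 and 15.3 at 25 weeks. Both 3-week libraries were above all 4 later ones. At 8 weeks Mest fell by 1.66 ± 0.22 (SE) on the log2 scale (edgeR, adjusted p = 0.00695). Within K/B.g7 it was 2.89 times lower at 8 than at 3 weeks (95% interval 2.49 to 3.36, counting error only), and within B.g7 3.74 times lower (3.05 to 4.62). Without the K/B.g7 library of 3 weeks, which leaves 1 library at that age that is assumed to vary like the others, the adjusted p was 0.0514. The share of fibroblast-like cells with a Mest UMI, at 1000 UMIs drawn per cell, was 2.93% and 2.96% at 3 weeks, 1.05% and 0.672% at 8 weeks, and 1.15% and 1.67% at 25 weeks. Without thinning these shares were 8.62% and 8.27%, 3.46% and 3.24%, and 2.94% and 7.08%, at median depths of 2913 to 5775 UMIs per cell. In mural-like cells, where Mest is low, the thinned share was 0% in 4 libraries and 0.588% and 1.52% in K/B.g7 at 8 weeks and B.g7 at 25 weeks, and the unthinned share 0% to 1.97%, at median depths of 1039 to 4380.

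Mest hosts the microRNA miR-335 in its span, and H19 hosts miR-675. Their RefSeq mature sequences, with the seed (bases 2 to 8) in capitals, show what the host transcripts can give rise to. The 4 seeds differ from one another. The assay counts polyadenylated transcripts, so the mature forms were not measured.
miR-335-5p: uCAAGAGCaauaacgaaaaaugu
miR-335-3p: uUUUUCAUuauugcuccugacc
miR-675-5p: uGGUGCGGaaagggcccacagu
miR-675-3p: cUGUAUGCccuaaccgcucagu

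Dlk1 encodes a transmembrane protein related to the Delta ligands of Notch, known for holding back differentiation of fat cell precursors. Fibroblast-like cells held 128 Dlk1 UMIs (6.36 CPM) in K/B.g7 and 45 (4.16 CPM) in B.g7 at 3 weeks. The 8-week counts were 3 and 5 UMIs (0.0958 and 0.298 CPM), although these libraries held more cells. At 25 weeks the genotypes differed in level, with 31 UMIs (0.752 CPM) in K/B.g7 and 155 (4.18 CPM) in B.g7. Dlk1 passed as lower at 8 than at 3 weeks (edgeR, adjusted p = 0.0172), and within K/B.g7 the ratio was 66.3 times lower with a counting interval of 22.2 to 326. Within B.g7 it was 13.9 times lower (5.55 to 45.0).

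Dlk1 UMIs were found in 10 of the 11 fibroblast-like clusters, and more than 50 pooled over the libraries in clusters 4 (101), 8 (81) and 1 (52). At 3 weeks 86 of the 128 UMIs in K/B.g7 lay in cluster 4, whose leading genes are Eln, Rbp4, Sparc and Mfap4, and 24 lay in cluster 5, led by Chad, Fmod and Comp. In B.g7 at 25 weeks 68 of 155 lay in cluster 8, led by Mt1, Mt2 and Inmt, and 35 in cluster 2, led by Cxcl14 and Ly6c1. The 81 UMIs of cluster 8 over all libraries lay in 15 cells and the 35 of cluster 2 in 2 cells, so these counts rest on few cells. Cluster 8 held 0 Dlk1 UMIs in both 3-week libraries. It had only 21 and 41 cells there (91421 and 142878 UMIs in all, K/B.g7 first), too few to tell a low level from none. From 8 to 25 weeks the fitted log2 change of Dlk1 was 3.49 ± 0.87, which did not pass (edgeR, adjusted p = 0.267), and 0 of 9 genes passed in that comparison, where 0.0904% of all genes were called (0.0278% higher, 0.0626% lower). Dlk1 passed as higher in that comparison when any 1 of 5 libraries was left out, with adjusted p between 4.82e-05 and 0.0419, and did not when the B.g7 library of 25 weeks was left out (0.494).

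Plagl1 held 8.99 and 6.09 CPM at 3 weeks, 3.29 and 2.45 at 8 weeks and 4.36 and 3.48 at 25 weeks, K/B.g7 first. The 3-week libraries were the highest. Plagl1 fell by 1.35 ± 0.26 on the log2 scale at 8 weeks (edgeR, adjusted p = 0.0248). The adjusted p was 0.209 without the K/B.g7 library of 3 weeks and 0.0525 without that of 8 weeks.

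Grb10 held 104 and 80.7 CPM at 3 weeks, 52.8 and 42.5 at 8 weeks, and 62.5 and 56.1 at 25 weeks. No later library reached the lower 3-week library. Grb10 fell by 0.91 ± 0.20 on the log2 scale at 8 weeks (edgeR, adjusted p = 0.0354). Without the K/B.g7 library of 3 weeks, that of 8 weeks or the B.g7 library of 8 weeks, the adjusted p was 0.199, 0.208 and 0.221.

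The mix of cells by sex-linked transcripts differed between the ages, so the 8-week comparison was repeated within each kind of cell, a choice made after seeing the data. In fibroblast-like cells with an Xist UMI and no Y-linked UMI the same 4 genes passed as lower. In those with a Y-linked UMI and no Xist UMI, only 89 cells in B.g7 at 8 weeks, Mest (-1.63 ± 0.35, edgeR, adjusted p = 0.00636) and Dlk1 (0.0200) passed. Plagl1 (-0.96 ± 0.68, 0.590) and Grb10 (-0.69 ± 0.30, 0.276) did not pass there. Of all genes 4.97% were called in the first kind and 4.23% in the second.

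The other 5 tested genes did not pass at 8 weeks in fibroblast-like cells. Meg3 held 508 and 547 CPM at 3 weeks, 321 and 363 at 8 weeks, and 409 and 521 at 25 weeks (edgeR at 8 weeks, adjusted p = 0.186). Ndn held 177 and 176 CPM at 3 weeks, 117 and 143 at 8 weeks, and 105 and 148 at 25 weeks (adjusted p = 0.324). Cdkn1c held 99.0 and 99.6 CPM at 3 weeks, 78.3 and 74.1 at 8 weeks, and 52.6 and 72.6 at 25 weeks (adjusted p = 0.390). Peg3 held 83.2 and 102 CPM, then 57.0 and 79.3, then 84.7 and 60.1 (adjusted p = 0.364). For Meg3, Ndn, Cdkn1c and Peg3 both 3-week libraries lay above both of 8 weeks, and for Meg3 and Peg3 the 25-week libraries overlapped with those of 3 weeks. The share of all genes whose libraries separate by age, as here and for the genes above, was not counted. Libraries of the same age deviated together over genes, with correlations of 0.641 at 3 and 0.513 at 8 weeks, so these orders are descriptions. H19 stayed between 2.33 and 4.35 CPM in all 6 libraries (adjusted p = 0.863).

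**Figure D2:**
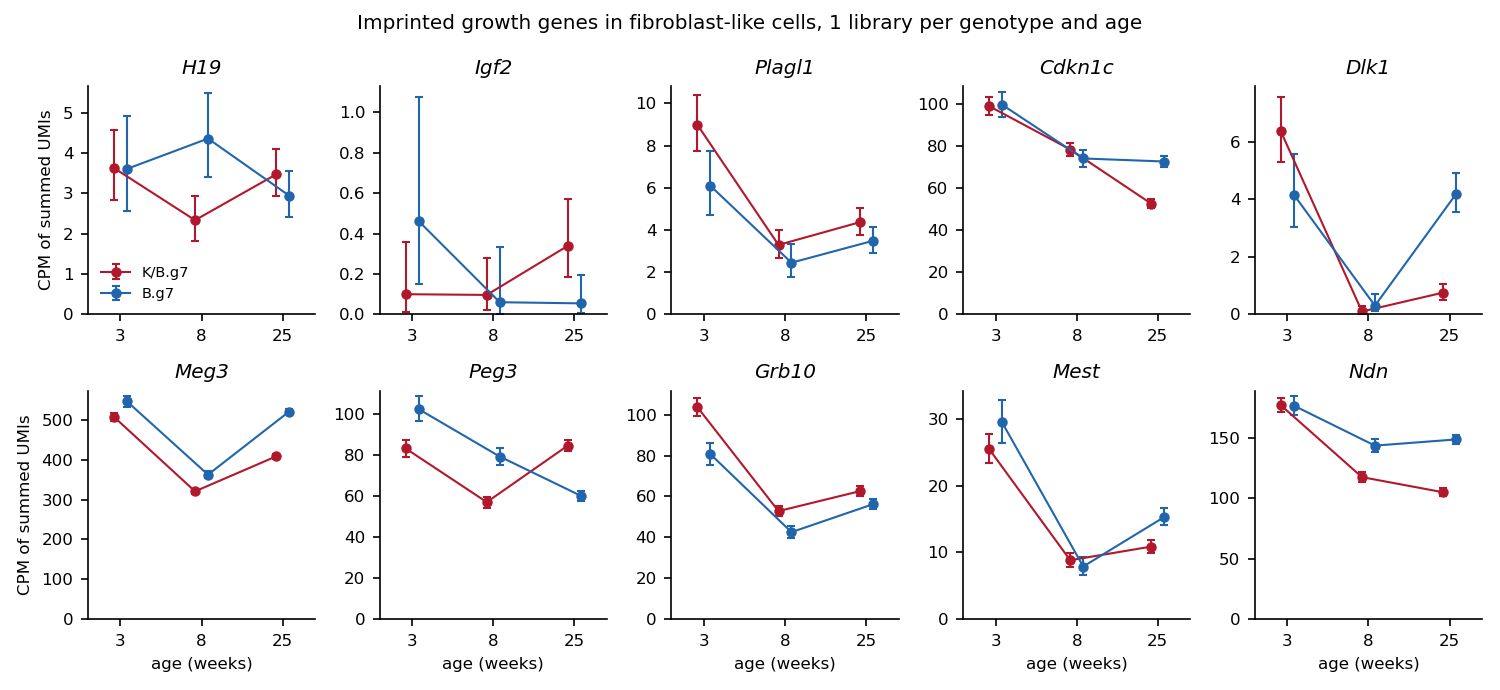
CPM of summed UMIs in fibroblast-like cells (vertical axes from 0) against age in weeks (horizontal), 1 point per library, with exact Poisson 95% intervals for counting error. Mest runs from 25.5 and 29.5 CPM at 3 weeks to 8.81 and 7.87 at 8 weeks, and Dlk1 is near 0 in both 8-week libraries.

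At 25 weeks 0 of the 9 genes passed against 3 weeks in fibroblast-like cells, where 0.577% of all genes did, and all 9 fitted changes were below 0. Mest was nearest to the threshold with a log2 change of -1.08 ± 0.21 (edgeR, adjusted p = 0.0719). The log2 changes were -0.94 ± 0.25 for Plagl1 (0.122), -0.63 ± 0.19 for Grb10 (0.154), -0.67 ± 0.22 for Cdkn1c (0.170) and -1.53 ± 0.68 for Dlk1 (0.258). The median was -0.63 over the 9 genes and 0.01 over all genes. In simulated counts for this comparison, over 14173 genes, 33.0% of genes changed 2-fold and 98.0% of those changed 4-fold were recovered. These counts were drawn with 1 common spread for all genes, so the shares do not hold for a gene of wider spread. Mest passed when the K/B.g7 library of 8 weeks (0.000969), the B.g7 library of 3 weeks (0.0472), of 8 weeks (0.00126) or of 25 weeks (0.0179) was left out. Dlk1 passed without the K/B.g7 library of 8 weeks or the B.g7 library of 3, 8 or 25 weeks (0.00595 to 0.0332), while without the K/B.g7 library of 3 weeks its change was 0.01.

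The make-up of the fibroblast-like class also moved with age. Cluster 4, led by Eln, Rbp4, Sparc and Mfap4, held 54.0% and 43.0% of the class at 3 weeks, 0.359% and 3.88% at 8 weeks, and 0.486% and 3.13% at 25 weeks, K/B.g7 first. At 8 weeks cluster 2 held 33.3% of the class in K/B.g7, and cluster 9, led by Igfbp3 and Myoc, held 37.4% in B.g7. Most cells of cluster 4 came from the 3-week libraries (2386 and 1319, K/B.g7 first), which is why levels are compared between clusters at that age alone. In the 3-week libraries Mest held 27.8 and 29.6 CPM in cluster 4, below the 59.1 and 37.4 of cluster 3 and the 89.6 and 54.3 of cluster 6, the latter from 21 and 24 UMIs. Cdkn1c held 119 and 108 CPM in cluster 4 and 181 and 220 in cluster 0. The whole class held 25.5 and 29.5 CPM of Mest and 99.0 and 99.6 of Cdkn1c at 3 weeks. Cluster 4 was therefore not below the class as a whole for either gene. The part of its loss in the class-wide changes was not tested.

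Mest was therefore also tested within single clusters that held at least 20 cells in every library, a choice made after the class results were seen. In cluster 0, led by Lamb1, Pcsk6 and Smoc2, Mest held 18.8 and 45.4 CPM at 3 weeks and 5.77 and 3.36 at 8 weeks, a log2 change of -2.45 ± 0.41 (edgeR, adjusted p = 0.000212). In cluster 3, led by Cst6, Cilp and Postn, it held 59.1 and 37.4 CPM and then 7.68 and 3.51, a log2 change of -2.74 ± 0.38 (adjusted p = 5.26e-05). It also passed in clusters 1, 5 and 6, and not in clusters 2, 4, 8 and 9. At 3 weeks, K/B.g7 first, cluster 2 had only 23 and 52 cells, cluster 8 had 21 and 41, and cluster 9 had 29 and 53. Cluster 4 had 24 and 139 cells at 8 weeks. With so few cells, not passing in these 4 clusters does not show that Mest was unchanged there.

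The Dlk1 call repeated within the single clusters where it could be tested, and those of Grb10 and Plagl1 did not. Dlk1 could be tested in clusters 1 and 5 and passed in both, with log2 changes of -5.27 ± 0.94 and -3.17 ± 0.97 (edgeR, adjusted p = 0.000486 and 0.0309). Grb10 passed in none of 9 clusters, although all 9 fitted changes were below 0, from -0.95 in cluster 2 to -0.15 in cluster 4. Plagl1 could be tested in 3 clusters and passed in none. The part of the cluster shares in the class-wide Grb10 and Plagl1 changes was not tested further. Mural markers summed to 821 and 438 CPM at 3 weeks, 302 and 322 at 8 weeks and 633 and 398 at 25 weeks in fibroblast-like cells, with all 10 detected, and the endothelial markers to 58.6 to 103 CPM with none at 0. The part of such RNA in these results was not tested.

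In endothelial-like cells the H19 transcript, whose gene shares control elements with Igf2, stayed high at every age. It held 470 and 594 CPM at 3 weeks in K/B.g7 and B.g7, 398 and 868 at 8 weeks, and 465 and 529 at 25 weeks. The ages overlapped, and the B.g7 library was the higher one at each age. The log2 change was 0.27 ± 0.33 at 8 weeks and -0.11 ± 0.33 at 25 weeks against 3 weeks (edgeR, adjusted p = 0.749 and 0.916). Without the B.g7 library of 8 weeks the 8-week change was -0.24, and without the K/B.g7 library of 3 weeks or the B.g7 library of 25 weeks the 25-week change was 0.14. The 8-week comparison was repeated by sex-linked transcripts here too, and the fitted directions were opposite. In cells with an Xist UMI and no Y-linked UMI, 49 to 1018 per library, H19 passed as higher (1.42 ± 0.29, edgeR, adjusted p = 0.0100), in a fit that called 9.99% of all genes. In cells with a Y-linked UMI and no Xist UMI, 33 to 320 per library, it passed as lower (-2.72 ± 0.50, 0.00649), in a fit that called 1.45%. The difference between these 2 kinds of cells was not tested. At 1000 UMIs drawn per cell, 11.8% to 38.0% of endothelial-like cells held an H19 UMI, against 0.236% to 0.736% of fibroblast-like cells in the same libraries. Unthinned shares were 20.8% to 52.3% and 0.839% to 1.96%, at median depths of 1826.5 to 3962 and 2913 to 5775 UMIs per cell.

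Igf2 was far sparser in the same cells. It held 27.8 and 13.7 CPM at 3 weeks (31 and 9 UMIs), 3.34 and 9.26 at 8 weeks (6 and 45 UMIs), and 15.9 and 7.48 at 25 weeks (35 and 9 UMIs). The 3-week libraries overlapped with the later ones, and no age comparison passed (edgeR, adjusted p = 0.286 at 8 weeks and 0.547 at 25 weeks). The share of endothelial-like cells with an Igf2 UMI ran from 1.39% to 17.8% over the libraries among cells with an H19 UMI, and from 0% to 2.74% among the others. In K/B.g7 at 8 weeks these shares were 1.39% and 1.20%, from 2 and 4 cells. In B.g7 at 8 weeks 34 of 626 endothelial-like cells with an H19 UMI also held an Igf2 UMI (5.43%), against 3 of the cells without one (0.526%). The cells with an H19 UMI were deeper there, with a median of 3434 UMIs against 2954, and they were deeper in all libraries but K/B.g7 at 3 weeks (2871 against 3263 UMIs). The difference in depth was widest in B.g7 at 25 weeks (6424.5 against 3317 UMIs). The part of depth in these shares was not tested.

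Meg3 was the one gene of 9 tested that passed between 8 and 3 weeks in endothelial-like cells. It held 147 and 200 CPM at 3 weeks, 57.3 and 18.3 at 8 weeks, and 102 and 50.7 at 25 weeks, so both 3-week libraries lay above the 4 later ones. The share of all genes whose endothelial-like libraries separate in this way was not counted. Of all 10175 genes, 0.383% were called lower, 0.688% higher and 1.07% in either direction. Meg3 fell by 2.34 ± 0.42 on the log2 scale (edgeR, adjusted p = 0.0256). It was 2.57 times lower within K/B.g7 (2.00 to 3.32, counting error only) and 10.9 times lower within B.g7 (8.28 to 14.5). The call was lost without the genotype term (0.0719), without the K/B.g7 library of 3 weeks (0.0619) and without the B.g7 library of 3 weeks (0.337). In cells with an Xist UMI and no Y-linked UMI Meg3 passed (-3.50 ± 0.52, 0.00235), and in cells with a Y-linked UMI and no Xist UMI it did not (-1.11 ± 0.46, 0.397). At 25 weeks the log2 change was -1.32 ± 0.40 (adjusted p = 0.341), and 0 of 9 genes passed, as did 0% of all genes. By unadjusted p 1173 genes were below 0.05 in that comparison, and Meg3 passed without the K/B.g7 or the B.g7 library of 8 weeks.

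The Meg3 start site is shown because it carries a pair of overlapping TATA-like matches, in capitals (RefSeq, GRCm38.p6, chr12:109540746-109541045, plus strand). TATAAA was found on either strand in 13.6% of all promoter windows. RefSeq gave 2 Meg3 windows, and this one was picked for its matches, since the other (chr12:109545148-109545447) held none.
Meg3: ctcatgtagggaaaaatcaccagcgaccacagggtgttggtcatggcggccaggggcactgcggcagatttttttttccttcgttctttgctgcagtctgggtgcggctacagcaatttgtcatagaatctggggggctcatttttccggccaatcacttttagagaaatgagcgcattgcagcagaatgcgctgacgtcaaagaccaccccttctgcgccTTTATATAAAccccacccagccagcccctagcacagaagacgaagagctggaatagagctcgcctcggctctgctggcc

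Fibroblast markers summed to 3284 to 5352 CPM in the endothelial-like cells of the 6 libraries, with all 9 detected, against 24438 to 36117 in fibroblast-like cells. The sum was 4319 and 3681 CPM at 3 weeks, 5352 and 3284 at 8 weeks and 4353 and 3588 at 25 weeks. Meg3 is high in fibroblast-like cells, and the part of such RNA in the endothelial-like Meg3 level was not tested.

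**Figure D3:**
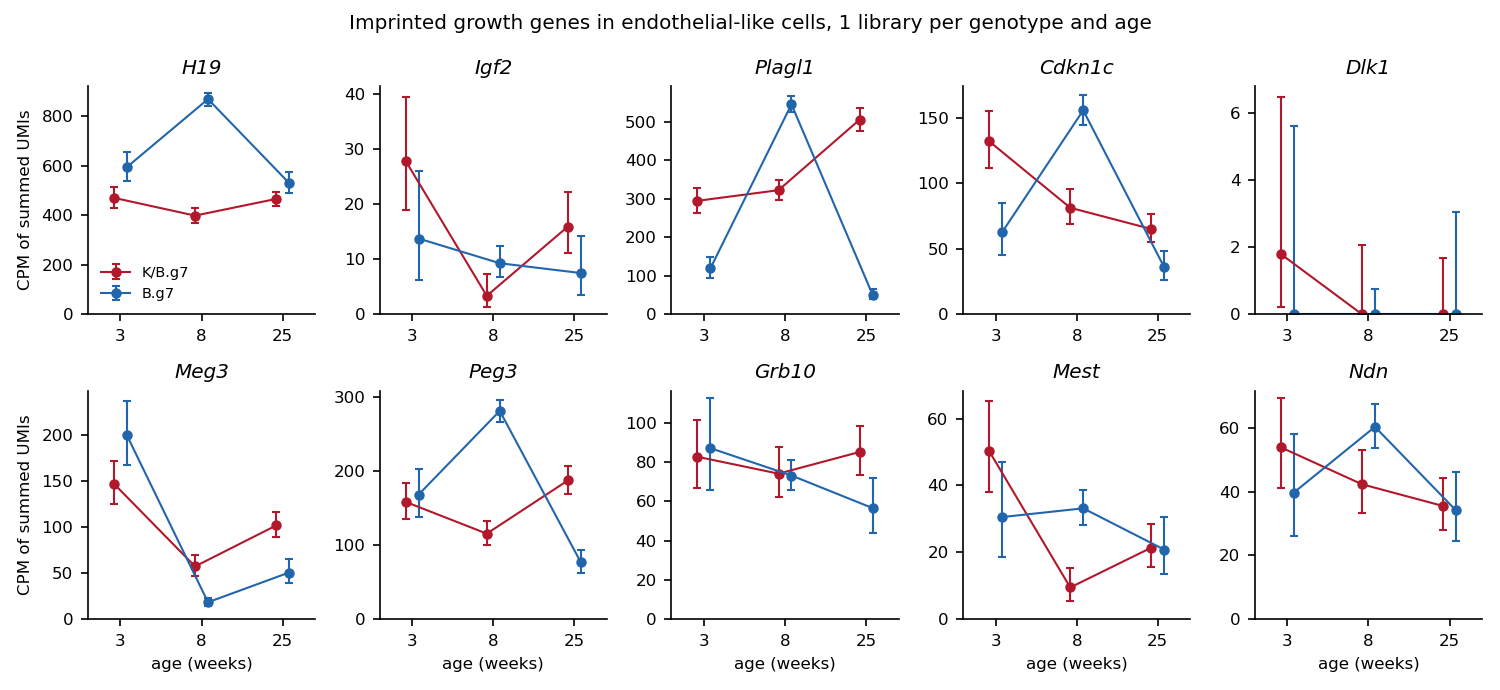
CPM of summed UMIs in endothelial-like cells (vertical axes from 0) against age in weeks, 1 point per library, with exact Poisson 95% intervals for counting error. H19 stays between 398 and 868 CPM, while Plagl1 runs from 50.7 to 545 CPM and Meg3 from 18.3 to 200 CPM without a common order of the genotypes.

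Plagl1, Cdkn1c and Peg3 varied widely between endothelial-like libraries. Plagl1 held 295 and 119 CPM at 3 weeks, 322 and 545 at 8 weeks, and 505 and 50.7 at 25 weeks, K/B.g7 first. Cdkn1c held 132 and 62.6 CPM, then 81.3 and 156, then 65.1 and 35.7. Peg3 held 158 and 168 CPM, then 115 and 281, then 187 and 76.5. All 3 were highest in B.g7 at 8 weeks and lowest in B.g7 at 25 weeks, and their ages overlapped. For Plagl1 the log2 change at 8 weeks was 1.58 ± 0.71 (edgeR, adjusted p = 0.343), and it was -0.34 without the B.g7 library of 8 weeks. In cells with an Xist UMI and no Y-linked UMI Plagl1 passed as higher (2.65 ± 0.42, adjusted p = 0.00284), and in the opposite kind its change was -1.54 ± 0.54 (0.258).

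The endothelial-like cells were clustered again with the 10 genes and the other imprinted genes left out, which gave 8 subclusters. E1, led by Dpp4 and Npr3, held 1227 CPM of H19, 737 of Plagl1, 213 of Cdkn1c, 419 of Peg3 and 0 of Meg3, which allows up to 2.20 CPM of Meg3. E0, the largest with 1083 cells, held 906 CPM of H19, 751 of Plagl1 and 6.07 of Meg3. Its leading genes include the globins, Hspa1b, Adh6b and Plagl1 itself, and the globin-led red cell list summed to 2810 CPM in endothelial-like cells of K/B.g7 at 8 weeks against 17.7 to 118 in the other 5 libraries. E3, led by Nppc, Wnt9b and Hapln1, had the opposite pattern, with 211 CPM of H19, 14.7 of Plagl1, 19.1 of Cdkn1c and 248 of Meg3. E6, led by Sema3g, Cldn5 and Sox17, held 41.7 CPM of H19 and 18.5 of Plagl1, and had the highest Igf2 level at 32.4 CPM.

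The shares of these subclusters moved between libraries. E0 and E1 together made up 36.0% and 19.5% of endothelial-like cells at 3 weeks, 44.2% and 85.2% at 8 weeks, and 47.6% and 8.85% at 25 weeks. The B.g7 library of 8 weeks had the highest share, the highest Plagl1 level and the lowest Meg3 level of the 6 libraries. Meg3 did not follow the share throughout: the B.g7 library of 25 weeks, lowest in the share, was next to lowest in Meg3 (50.7 CPM). Within E3 alone Meg3 held 350 and 387 CPM at 3 weeks, 193 and 249 at 8 weeks, and 322 and 82.1 at 25 weeks, and its 8-week log2 change was -0.77 ± 0.40 (edgeR, adjusted p = 0.512). Within E5, led by Lsamp and with Prox1 among its leading genes, H19 held 583 and 1048 CPM at 3 weeks, 251 and 512 at 8 weeks, and 531 and 875 at 25 weeks, a log2 change at 8 weeks of -0.995 (adjusted p = 0.147). How much of the class-wide Meg3 and Plagl1 values follows from the subcluster shares was not tested beyond these values.

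**Figure D4:**
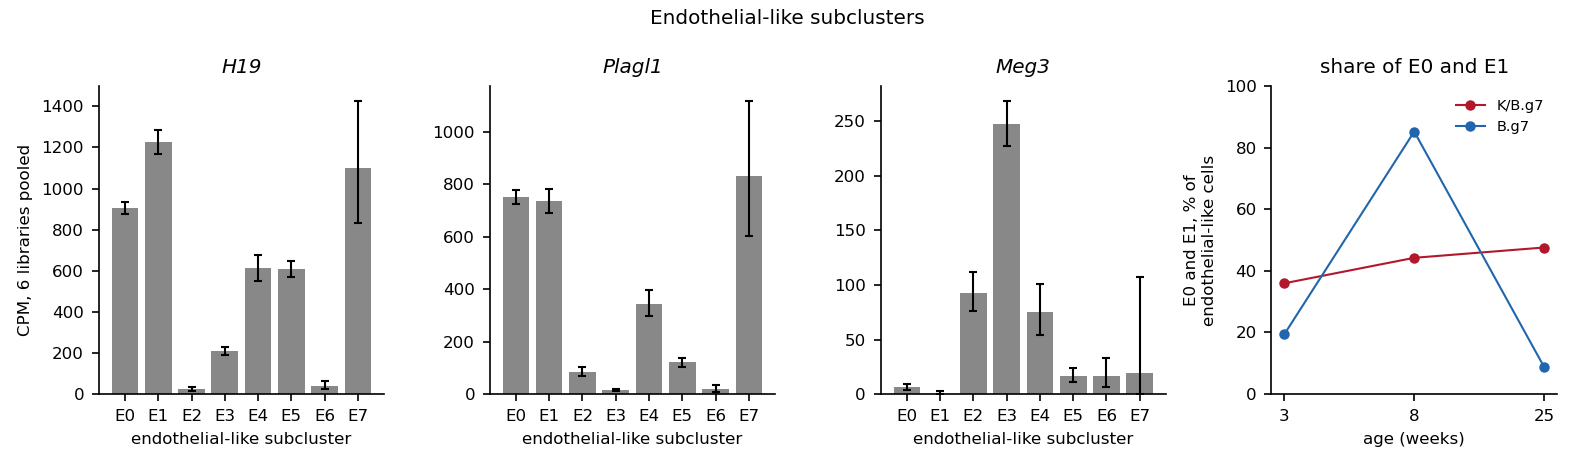
Left 3 panels: CPM of H19, Plagl1 and Meg3 in endothelial-like subclusters E0 to E7, 6 libraries pooled, with exact Poisson 95% intervals (bars start at 0). Right panel: share of endothelial-like cells in E0 and E1 by age and genotype, which runs from 8.85% to 85.2% in B.g7 and from 36.0% to 47.6% in K/B.g7.

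Mest, Ndn and Grb10 did not pass in endothelial-like cells. Mest held 50.3 and 30.5 CPM at 3 weeks, 9.46 and 33.1 at 8 weeks, and 21.4 and 20.8 at 25 weeks, so that in K/B.g7 it was 5.32 times lower at 8 weeks (3.04 to 9.76, counting error only) and in B.g7 1.09 times the 3-week level (0.680 to 1.82). Ndn stayed between 34.1 and 60.3 CPM and Grb10 between 56.5 and 87.0. Dlk1 was at 2 UMIs in K/B.g7 at 3 weeks and at 0 in the other 5 libraries, which allowed up to 0.618 CPM in the deepest.

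**Figure D5:**
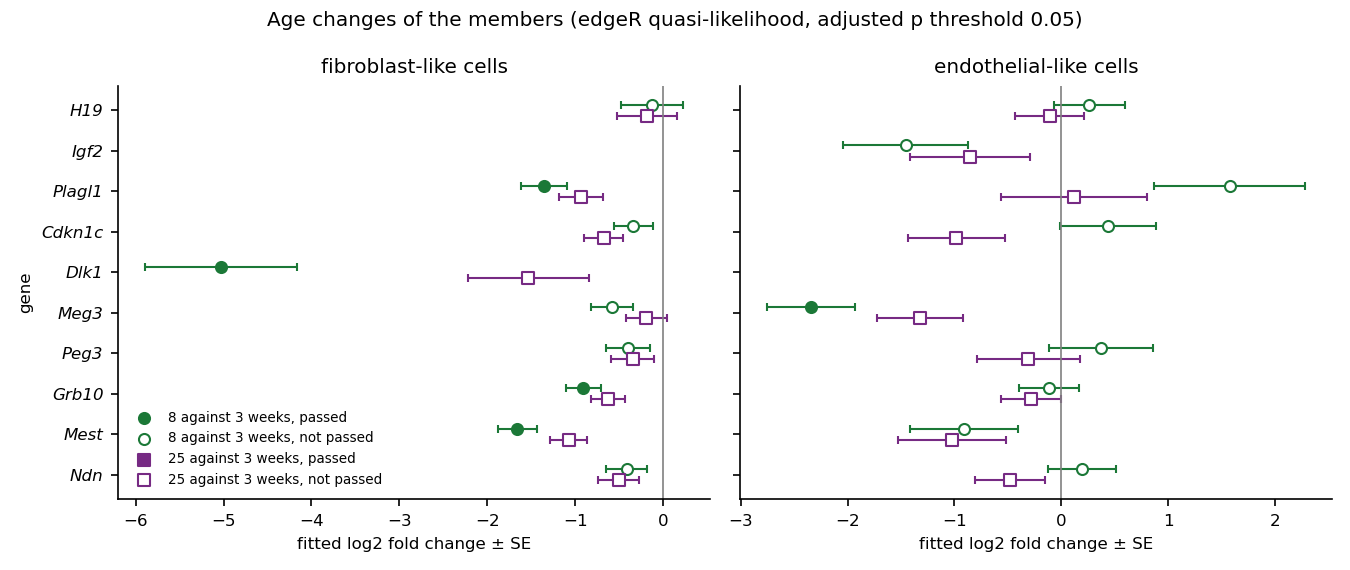
Fitted log2 fold change ± SE of each gene at 8 weeks (circles) and 25 weeks (squares) against 3 weeks, in fibroblast-like (left) and endothelial-like cells (right). Filled symbols passed an adjusted p of 0.05: Mest, Dlk1, Plagl1 and Grb10 at 8 weeks on the left, and Meg3 at 8 weeks on the right. Igf2 (left) and Dlk1 (right) were not tested.

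Between 25 and 8 weeks 0 of 9 genes passed in endothelial-like cells, where 0.206% of all genes did (0.0295% higher, 0.177% lower). The largest fitted change was that of Plagl1, and 4 of the 9 genes passed when the K/B.g7 library of 8 weeks was left out, a fit in which 4.56% of all genes passed. In mural-like cells 6 of the genes could be tested between 25 and 3 weeks and 0 passed, against 0.273% of all genes (0.174% higher). The slope over log2 age was also compared between endothelial-like and fibroblast-like cells, with library as a block, and 0 of 10 genes passed, as did 0% of all genes (515 at an unadjusted p below 0.05). The H19 slopes differed by 0.01 ± 0.10 log2 per doubling of age, and the Meg3 slopes by -0.33 ± 0.23. This slope runs over 3, 8 and 25 weeks, so it does not test the fall from 3 to 8 weeks by itself. The 8-week declines of Mest in fibroblast-like and Meg3 in endothelial-like cells were therefore not shown to differ between the classes.

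The genotype comparison asked whether the inflamed valves differed in these genes, with the 3 ages as replicates. In fibroblast-like cells 0 of 9 genes passed, as did 0% of all genes (970 at an unadjusted p below 0.05). The largest difference was that of Dlk1, whose higher library was the B.g7 one at 8 and 25 weeks and the K/B.g7 one at 3 (edgeR, adjusted p = 0.806), and it passed as lower in K/B.g7 without the B.g7 library of 3 weeks. In simulated counts for this comparison, over 14162 genes and with 1 common spread for all of them, 69.1% of genes changed 2-fold were recovered. In endothelial-like cells 0 of 9 passed, against 0.0688% of all genes. H19 was lower in K/B.g7 at 3 of 3 ages, a log2 difference of -0.60 ± 0.27 (unadjusted p = 0.0471, adjusted p = 0.991), and Plagl1 was higher at 2 of 3 ages, 1.18 ± 0.62 (adjusted p = 0.991). Plagl1 passed as higher in K/B.g7 when either 8-week library was left out.

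Genotype and log2 age together were tested as an interaction, and 0 of 9 genes passed in either class, as did 0% of all genes. At an unadjusted p below 0.05 there were 366 genes in fibroblast-like and 229 in endothelial-like cells. Plagl1 passed in endothelial-like cells without the B.g7 library of 3 weeks. The direction over age in fibroblast-like cells was the same in both genotypes from 3 to 8 weeks for 8 of the 9 tested genes by CPM. The share of all genes with the same direction in both genotypes was not counted, so this is not shown to be particular to these genes. The exception among the 9 was H19, at 3.62 and then 2.33 CPM in K/B.g7 and 3.60 and then 4.35 in B.g7.

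Other genes of growth and imprinting were read from lists chosen with earlier results of these data known, and their medians are descriptions. Of 39 other imprinted genes tested in fibroblast-like cells, 3 rose and 1 fell at 8 weeks, with a median log2 change of -0.16 against 0.01 over all genes. Over all genes 3.18% rose and 2.35% fell, so the 1 gene that fell is near the background. Zim1, a zinc finger gene beside Peg3, fell by 5.02 ± 0.57 (edgeR, adjusted p = 0.00396), from 6.16 and 3.79 CPM at 3 weeks to 0.128 and 0.179 at 8 weeks. Rasgrf1, a Ras exchange factor gene, rose from 1 and 0 UMIs at 3 weeks to 52 and 29 at 8 weeks (adjusted p = 0.0113). Zrsr1 rose by 1.10 ± 0.23 (adjusted p = 0.0304) and Calcr by 2.59 ± 0.61 (0.0470), the latter from 5 and 3 UMIs. The 4 of smallest p at 25 weeks were Zim1, Nnat, Zrsr1 and Rasgrf1, of which none passed (adjusted p between 0.0533 and 0.140).

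The IGF axis had 19 genes tested in fibroblast-like cells, of which 1 rose and 1 fell at 8 weeks. With 3.18% of all genes called higher and 2.35% lower, that count is near the background. Igf1, the circulating and local growth factor, held 999 and 744 CPM at 3 weeks, 304 and 342 at 8 weeks, and 522 and 439 at 25 weeks. It fell by 1.37 ± 0.27 on the log2 scale at 8 weeks (edgeR, adjusted p = 0.0256). Irs2, an adaptor of the insulin and IGF1 receptors, rose by 1.15 ± 0.23 (0.0264), from 23.9 and 26.8 CPM to 42.3 and 69.5. Irs2, Stc1, Igf1 and Htra1 had the smallest p at 25 weeks and did not pass (0.0917 to 0.159). In endothelial-like cells, where 0.383% of all genes fell, 2 of 15 fell at 8 weeks, the IGF-binding protein regulators Htra1 (-2.05 ± 0.39, adjusted p = 0.0337) and Stc1 (-1.46 ± 0.29, 0.0406).

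Of 20 growth genes that are not imprinted, 7 fell and 0 rose at 8 weeks in fibroblast-like cells, with a median of -0.57. Of all genes, 2.35% fell and 3.18% rose in that comparison. Nrk, a kinase gene on the list, held 13.9 and 18.0 CPM at 3 weeks, 1.82 and 2.03 at 8 weeks and 6.91 and 6.23 at 25 weeks. Its log2 changes were -3.00 ± 0.24 at 8 weeks and -1.27 ± 0.21 at 25 weeks (edgeR, adjusted p = 0.00132 and 0.0479). Nrk was thereby the 1 gene of the 6 lists that passed at 25 weeks in fibroblast-like cells, and that call was lost without the K/B.g7 library of 3 weeks (0.248) or of 25 weeks (0.145), without the B.g7 library of 3 weeks (0.0535) or of 25 weeks (0.0577), and without the genotype term (0.0840). Gpc3, a heparan sulphate proteoglycan that limits growth, fell by 1.94 ± 0.35 at 8 weeks (0.0198), and Dnmt3a, E2f1, Ptn, Uhrf1 and Sox11 fell as well. In endothelial-like cells, where 0.383% of all genes fell at 8 weeks, 1 of 15 fell, the growth factor gene Ptn (-2.42 ± 0.30, edgeR, adjusted p = 0.00346).

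Proliferation genes moved in the same comparison. Of 20 tested in fibroblast-like cells 13 fell and 0 rose at 8 weeks, with a median of -2.31, among them Mki67 (-3.97 ± 0.68, edgeR, adjusted p = 0.0165) and Top2a (-3.91 ± 0.64, 0.0150). Over all genes 2.35% fell and 3.18% rose. Top2a held 17.6 and 14.04 CPM at 3 weeks, 0.894 and 1.37 at 8 weeks, and 1.21 and 6.85 at 25 weeks. Of 6 other CDK inhibitors, the class to which Cdkn1c belongs, Cdkn2c rose by 1.23 ± 0.20 (0.0148), and 0 of 10 Notch pathway genes tested passed. In endothelial-like cells Cdk1 was the 1 proliferation gene of 19 that fell at 8 weeks (-3.23 ± 0.47, 0.00793), and Tspan32 the 1 of 25 other imprinted genes (-2.53 ± 0.50, 0.0384). Of all genes, 0.383% fell there. Among the list genes named with a value at 8 weeks, Zrsr1, Calcr, Igf1 and Cdkn2c in fibroblast-like cells and Ptn, Stc1, Htra1 and Cdk1 in endothelial-like cells did not pass in cells with a Y-linked UMI and no Xist UMI, and Cdk1 also did not in the opposite kind. Of these named list genes, only Nrk and Zim1, in fibroblast-like cells, kept their 8-week call whichever library was left out. The calls of the others rest in part on single libraries.

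Genes most like each of the 10 were sought by Pearson's correlation of log2(CPM + 1) over 59 sums of class and library, among 6561 genes with a mean of at least 20 CPM. The sums of 1 library share its depth, and those of 1 class share its cells, so r is a description. H19 was closest to the endothelial genes Plvap, Emcn and Selp (r = 0.84, 0.84 and 0.82), and Igf2 to Flt1, Sele and Nos3 (0.84, 0.74 and 0.72). Meg3 was closest to Fgf2, Col6a3 and Rab34 (0.92, 0.91 and 0.91), Grb10 to Limch1, Fbxl7 and Npdc1 (0.94 each), and Peg3 to Maged1, Plat and Tead1 (0.89, 0.88 and 0.88). Ndn was closest to Fgfr1, Mpzl1 and Ryk (0.88, 0.87 and 0.86), Cdkn1c to Kcnt2, Armcx2 and P3h4 (0.83, 0.82 and 0.81), and Mest to Ptn, Arhgef10 and Fam189a2 (0.83, 0.81 and 0.80). The closest genes were less close for Plagl1 (Aplp2, Tanc1 and Lmo7, 0.71, 0.70 and 0.69) and Dlk1 (Ssr4, Arf4 and Has1, 0.68, 0.62 and 0.61). H19 and Igf2, neighbours on chromosome 7, had an r of 0.74 with each other.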

How the data were processed

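Single cells of mitral valves were profiled by droplet sequencing in 6 libraries. The deposited values are UMI counts per gene and cell, not normalized; per the submitters' processing notes they were made with Cell Ranger 3.1.0 on genome build mm10. A barcode was used if it had 500 or more UMIs, 300 or more genes and a mitochondrial share of 10% or less, and if it was not a predicted doublet. Cells were clustered with scanpy 1.11.5 and leidenalg 0.10.2 (2000 variable genes, 30 components, 15 neighbours, resolution 1.0), and clusters were named from marker lists, so names were rebuilt here. Counts were summed per library and class of at least 20 cells. They were tested in edgeR 4.0.16 (R 4.3.3) with TMM factors and its filter on low counts, with all 6 libraries in each fit. The threshold was an adjusted p of 0.05. The genotype comparison had age as a block and the age comparisons had genotype.

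The 10 genes and all lists were chosen with earlier results of these data known. All 10 genes are named. Of each list, up to 4 genes of smallest p at 25 against 3 weeks in fibroblast-like and endothelial-like cells were to be named, and genes that passed at 8 weeks are named because they passed. In endothelial-like cells those of smallest p were Axl, Commd1, Tspan32 and Zrsr1 (other imprinted genes), Igf1r, Igfbp3, Stc1 and Stc2 (IGF axis), Mdk, Sox4, E2f3 and Uhrf1 (growth genes), Cdk1, Pcna, Stmn1 and Mki67 (proliferation), Cdkn2d, Cdkn1b, Cdkn1a and Cdkn2c (CDK inhibitors) and Dll4, Hes1, Heyl and Hey2 (Notch). In fibroblast-like cells they were also Nrk, Dnmt3a, Ptn and E2f1, Rrm2, Cenpf, Pcna and Birc5, Cdkn2c, Cdkn1a, Cdkn2d and Cdkn2a, and Hes1, Jag1, Notch2 and Notch3. Apart from Nrk in fibroblast-like cells, none of these passed at 25 weeks.

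Libraries of the same age deviated together after genotype means were removed, with correlations over genes, in order of age, of 0.641, 0.513 and 0.238 for fibroblast-like and 0.463, 0.302 and 0.101 for endothelial-like cells. The alternatives were RLE size factors, no filter, DESeq2 1.42.0, no block, each library left out, doublets kept, clustering without imprinted genes, cells by sex-linked transcripts (at 8 weeks chosen after seeing the data) and single clusters. The scripts were tested on simulated data.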

Additional observations from a re-analysis of the deposited data

How the results depend on the processing

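Of 610 values of single genes under the alternatives, 118 lost a call, 41 gained one and 25 changed sign. The other 426 kept their direction and, where an adjusted p was given, their side of the threshold. Of 180 counts among the 10 genes under the alternatives, 129 stayed the same or within a factor of 1.5, and 51 moved. Leaving out a library leaves 1 library at an age, which is assumed to vary like the others. Single clusters and cells by sex-linked transcripts at 8 weeks, and single endothelial-like subclusters, were chosen after seeing the data. Causes were not tested. In fibroblast-like cells the 4 calls among the 10 genes at 8 weeks became 2 in cells with Y-linked UMIs only (Dlk1 and Mest lower), 2 in cluster 0 (Cdkn1c and Mest lower), 1 in cluster 2 (H19 lower), 1 in clusters 3 and 6 (Mest lower), 0 in clusters 4, 8 and 9, and 1 to 4 with a library left out. In cluster 1, where 3 passed, H19 was called higher. Of all genes 4.23% were called at 8 weeks in cells with Y-linked UMIs only. Within clusters these shares were 6.57% in cluster 0, 7.57% in cluster 1, 2.7% in cluster 2 and 4.74% in cluster 3. They were 0.536% in cluster 4, 4.14% in cluster 6, 1.21% in cluster 8 and 0.847% in cluster 9. The 0 calls at 25 against 3 weeks became 3 with no filter, where 6.01% of all genes were called, 1 with DESeq2 (2.49% of all genes), 1 in cells with Y-linked UMIs only (3.78%), 2 in clusters 0 (Cdkn1c and Mest, 3.66%), 1 (Dlk1 and Ndn, 4.59%) and 5 (Cdkn1c and Dlk1, 8.36%), 1 in clusters 2 (H19, 1.89%), 3 and 6 (Mest, 4.47% and 2.89%), all lower, and 0 to 3 with a library left out (0% to 6.73%). At 25 against 8 weeks 0 became 1 with no filter and with DESeq2, and 0 to 1 with a library left out, as for genotype. In endothelial-like cells the 1 call at 8 weeks became 3 with no filter, 0 with no replicate block (Meg3 -2.20, adjusted p 0.0719 in edgeR), 0 in E3 and E5, 4 in cells with Xist only (H19, Plagl1 and Cdkn1c higher, Meg3 lower), 3 in cells with Y-linked UMIs only (H19, Peg3 and Mest lower), and 0 to 3 with a library left out. The 0 calls became 1 at 25 against 3 weeks with no filter (0 to 1 with a library left out), 2 at 25 against 8 weeks with no filter (0 to 4), and 1 for genotype with no filter and in cells with Y-linked UMIs only (0 to 1). The interaction gave 0 to 1. The block changed no other count among the 10 genes. Over all genes, 109 were called at 8 weeks in endothelial-like cells. That number ran from 56 to 755 under the alternatives that kept all libraries, single subclusters aside. On the same terms the all-gene counts in endothelial-like cells ran from 0 to 218 at 25 against 3 weeks (0 in the main fit). They ran from 12 to 204 at 25 against 8 weeks (21) and from 0 to 117 for genotype (7). In fibroblast-like cells they ran from 6 to 365 at 25 against 8 weeks (13) and from 0 to 273 for genotype (0).

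Log2 changes with another sign at 8 weeks in fibroblast-like cells were Plagl1 6.37 in cluster 8, Gpc3 0.0064 in cluster 2, 1.08 in cluster 8 and 1.60 in cluster 9, Zrsr1 -0.24 and Igf1 0.030 in cluster 2, and Cdkn2c -0.0025 in cluster 4. At 25 weeks they were Mest 0.50 in cluster 9, Plagl1 0.14 in cells with Y-linked UMIs only and 7.11 in cluster 8, Cdkn1c 0.58 in cluster 3, and Dlk1 0.0095 without the K/B.g7 library of 3 weeks (down to -3.06 without other libraries). In endothelial-like cells they were H19 -0.24 and Plagl1 -0.34 at 8 weeks without the B.g7 library of 8 weeks, H19 -2.72 and Plagl1 -1.54 in cells with Y-linked UMIs only, H19 -0.52 in E3, H19 -0.995 and Plagl1 -0.21 in E5, and H19 at 25 weeks 0.14 without the K/B.g7 library of 3 weeks or the B.g7 library of 25 weeks, 0.90 in cells with Xist only and 0.12 in E3. With a library left out the largest changes were 0.74 for H19 and 2.85 for Plagl1 at 8 weeks, and the lowest for H19 at 25 weeks was -0.39. For genotype the values of another sign were H19 0.57 in cells with Y-linked UMIs only and Plagl1 -0.10 in cells with Xist only. With a library left out, calls over all genes ran from 136 to 1457 at 8 weeks (796 with all) and from 0 to 1019 at 25 weeks (83 with all) in fibroblast-like cells, and from 0 to 779 at 8 weeks (109 with all) in endothelial-like cells. With no filter the median over all genes was 0.127 at 25 weeks in fibroblast-like cells and 0.171 at 8 weeks in endothelial-like cells. Within single clusters it reached 0.199 at 25 weeks and 0.188 at 8 weeks, both in cluster 8. Cluster 8 had only 21 and 41 cells at 3 weeks, K/B.g7 first. Its log2 changes, among them those of Plagl1, rest on these few cells.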

Other observations

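A small cluster of 162 cells that was given no name, led by the neuronal genes Cartpt, Prph and Stmn2, held 1194 CPM of Meg3, 774 of Ndn, 241 of Peg3 and 69.4 of Mest, pooled over the 4 libraries that had such cells. The 3-week libraries gave 87 and 36 of the cells, those of 8 weeks 36 and 3, and those of 25 weeks none, so the pooled values are mainly those of 3 weeks. The same cells held 1.13 CPM of Plagl1 and 1.41 of Cdkn1c. They are too few to be tested by library. In mesothelial-like cells of 5 libraries Peg3 ranged from 48.6 to 240 CPM and Cdkn1c from 45.9 to 202.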
